A study of Homo sapiens with 12 samples.

Results

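The comparison described here is the response of 1 human melanoma line, A2058, to low oxygen. A2058 is an established line, called metastatic melanoma in the labels. Cells grown in 1% oxygen (hypoxia, 2 libraries) were set against cells grown in atmospheric oxygen (normoxia, 2 libraries). No gene was edited and no drug was given in either group, as far as the labels say, and they do not give the time spent in low oxygen. The study measured polyadenylated RNA by sequencing in 3 melanoma lines (A2058, A375 and SKMEL-5, 12 libraries in 6 groups of 2), and its title asks what hypoxia does to the sugar-building genes of melanoma. The 4 A2058 libraries were taken by their labels, and 19636 of the 60656 gene IDs in the count table passed a filter on low counts and are described. The labels' design text calls the 2 libraries of a group biological duplicates of 1 line, so the spread between them is that of cultures of a single cell line.

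Cells sense oxygen through the hypoxia-inducible factors (HIFs). The alpha subunits HIF1A and EPAS1 are hydroxylated by the EGLN enzymes when oxygen is plentiful, bound by VHL and destroyed. In low oxygen they persist, pair with ARNT and bind short DNA motifs near genes of glucose uptake, glycolysis, vessel growth and acid handling. This control acts largely on the HIF protein, and in melanoma the pathway is best known for shifting metabolism away from respiration and for matrix remodelling.

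Total counts were 44522900 and 41766281 in the hypoxic libraries, against 39798648 and 33831569 in the normoxic ones (library 1, then library 2, here and below). Of 8 melanocytic markers all were detected, and they summed to 2760 and 6670 CPM (counts scaled to the library total) in hypoxia, against 2590 and 2840 CPM in normoxia, with SOX10, PMEL and DCT contributing most. The fibroblast markers summed to 101 and 124 CPM in hypoxia, against 35.3 and 42.4 CPM in normoxia, with none of the 10 at 0. The keratinocyte markers summed to 58.7 and 45.1 CPM in hypoxia, against 74.2 and 46.8 CPM in normoxia, and the blood and endothelial markers to 5.73 and 3.45 CPM, against 3.72 and 1.8 CPM. KRT5 and DSG3 of the first and CD3E and HBB of the second had no count in any of the 4 libraries, and none of the 3 and 7 members tested was separated in the sense defined below. The 2 hypoxic libraries were not alike. Hypoxic library 2 stood apart on the first principal component, at -109.3, against -2.47 for hypoxic library 1, 37.9 for normoxic library 1 and 73.8 for normoxic library 2. Hypoxic library 1 correlated best with normoxic library 2 (Pearson r 0.974 across genes, which are not independent), more than with its own duplicate (r = 0.966). The normoxic pair also differed (r = 0.963), and the share of all counts lying on the mitochondrial genome was 1.22% and 1.74% in hypoxia, against 20.1% and 7.64% in normoxia.

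Across the 19636 genes, 1 gene rose and 1 fell at an adjusted p under 0.05 (edgeR quasi-likelihood test, Benjamini-Hochberg adjustment over all tested genes), which is 0.00509% in each direction. The gene that rose was CDH13, which encodes T-cadherin, a cadherin held in the membrane by a lipid anchor with no cytoplasmic tail. CDH13 (ENSG00000140945.17, 16: 82626803 to 83800640 on GRCh38, + strand) had 32.5 and 30.9 CPM in hypoxia, against 3.03 and 3.41 CPM in normoxia. All 4 libraries of this gene were tight within their group, and the groups were far apart (log2 change 3.30 ± 0.31 (SE), 9.84-fold, edgeR adjusted p = 0.00825). The gene that fell was MTND2P28, an unprocessed pseudogene on chromosome 1 (629640 to 630683) that is a nuclear copy of the mitochondrial gene MT-ND2. MTND2P28 had 10.9 and 13.9 CPM in hypoxia, against 325 and 122 CPM in normoxia (log2 change -4.17 ± 0.51 (SE), edgeR adjusted p = 0.0489), and reads of the near-identical MT-ND2 may be counted on it. Neither call held in every setting: the adjusted p of CDH13 ran up to 0.237 and that of MTND2P28 up to 0.566 over the alternatives.

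At an unadjusted p under 0.05, 1103 genes (5.62%) were higher and 695 (3.54%) were lower. Because the test called so little, genes are also described by their libraries: a gene is called separated when the lower hypoxic library lay at least 2-fold above the higher normoxic one, or the reverse, in CPM scaled by the TMM method with 0.5 CPM added. All single-gene CPM values are TMM-scaled. By this rule 258 genes (1.31%) were separated higher, 243 of them protein-coding, and 154 (0.784%) were separated lower. Of those separated lower 23 lay on the mitochondrial genome and 4 were nuclear copies of mitochondrial genes. Any list's count of separated genes below is to be read against the 1.31% (higher) and 0.784% (lower) of all tested genes. DESeq2, another count test, called 248 genes higher (1.26%) and 124 lower (0.631%), CDH13 and MTND2P28 among them. Without hypoxic library 2, 366 genes (1.86%) were separated higher and 203 (1.03%) lower. The 2 hypoxic libraries did not respond equally: of the 258 genes separated higher, 70 were at least 2-fold higher in hypoxic library 2 than in hypoxic library 1 and 2 were the other way, against 2112 and 2925 of all tested genes.

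The best known HIF targets were higher together. Of 36 tested members of the list, 24 (66.7%) were separated higher and none lower, 34 had no overlap between the groups (20.5% of all tested genes did so, higher in hypoxia), and the median log2 change was 2.37, against 0.00 over all tested genes. None of the 36 passed edgeR's adjusted threshold, 31 had an unadjusted p under 0.05 (5.62% of all tested genes), and DESeq2 called 22 higher (1.26%). Without hypoxic library 2 the count stayed at 24 of 36, and the median log2 change was 1.66. Without hypoxic library 1 the count was 35, while over all tested genes 1365 were separated higher, against 258 with all libraries. Leaving out a library can only keep or raise a count of separated genes, for a list and for all tested genes, here and below. In bulk RNA, fewer cells of a type and less RNA per cell cannot be told apart, here or below.

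CA9, a cell-surface carbonic anhydrase that handles acid, had 363 and 725 CPM in hypoxia, against 18.98 and 0.0826 CPM in normoxia (log2 change 5.83 ± 1.95 (SE)). Both hypoxic libraries were far above both normoxic ones, but the normoxic pair itself was unequal, with 3 counts corresponding to 0.0887 CPM in normoxic library 2. NDRG1, a stress-induced gene first known from differentiating cells, had 1235 and 4332 CPM in hypoxia, against 273 and 41.3 CPM in normoxia (log2 change 4.15 ± 0.97 (SE)). ADM, the vessel-relaxing peptide adrenomedullin, had 55.3 and 190.5 CPM in hypoxia, against 13.1 and 9.004 CPM in normoxia (log2 change 3.47 ± 0.85 (SE)). ANGPTL4, a secreted inhibitor of lipoprotein lipase, had 24.3 and 75.7 CPM in hypoxia, against 5.36 and 1.57 CPM in normoxia (log2 change 3.85 ± 0.88 (SE)). In NDRG1, ADM and ANGPTL4 hypoxic library 2 was more than 3 times hypoxic library 1, so the groups separated while their members did not match. STC2, a secreted glycoprotein of calcium and phosphate balance, had 129 and 151 CPM in hypoxia, against 18.4 and 6.03 CPM in normoxia, with an even hypoxic pair (log2 change 3.52 ± 0.71 (SE)). STC1, its paralogue and not on the list, had 158 and 244 CPM in hypoxia, against 4.03 and 14.95 CPM in normoxia (log2 change 4.41 ± 0.95 (SE)). HILPDA, a protein of lipid droplets, had 61.9 and 351 CPM in hypoxia, against 29.9 and 8.37 CPM in normoxia (log2 change 3.43 ± 0.98 (SE)). STC2, STC1 and HILPDA were all separated.

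VEGFA, the main growth factor for blood vessels, had 318 and 828 CPM in hypoxia, against 117 and 97.8 CPM in normoxia (log2 change 2.42 ± 0.46 (SE), 5.34-fold, edgeR adjusted p = 0.177). Most of the vessel list was not separated. Of 18 angiogenic factors and receptors tested, VEGFA and ANGPTL4 were separated higher and none lower. VEGFB had 136 and 268 CPM in hypoxia, against 195 and 112 CPM in normoxia, and VEGFC had 13.2 and 20.6 CPM in hypoxia, against 9.67 and 13.96 CPM in normoxia. PGF, the placental growth factor, had 25.2 and 11.6 CPM in hypoxia, against 42.4 and 18.1 CPM in normoxia (log2 change -0.71 ± 0.53 (SE)). APLN, the ligand apelin and not on the list, had 41.1 and 65.4 CPM in hypoxia, against 5.95 and 4.05 CPM in normoxia (log2 change 3.41 ± 1.38 (SE)) and was separated. BNIP3, a receptor that marks mitochondria for removal, had 428 and 1220.4 CPM in hypoxia, against 261 and 38.8 CPM in normoxia, so its groups did not overlap but were not 2-fold apart. Its relative BNIP3L had 323 and 618 CPM in hypoxia, against 142 and 31.5 CPM in normoxia and was separated. BNIP3L was the 1 separated gene of 16 in mitophagy and autophagy. ANKRD37 had 20.4 and 115 CPM in hypoxia, against 15.9 and 5.51 CPM in normoxia, without overlap. The 2 targets whose libraries overlapped were JMJD6, with 67.6 and 167 CPM in hypoxia, against 70.7 and 69.2 CPM in normoxia, and MXI1, with 106 and 254 CPM in hypoxia, against 109 and 83.5 CPM in normoxia.

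**Figure D1:**
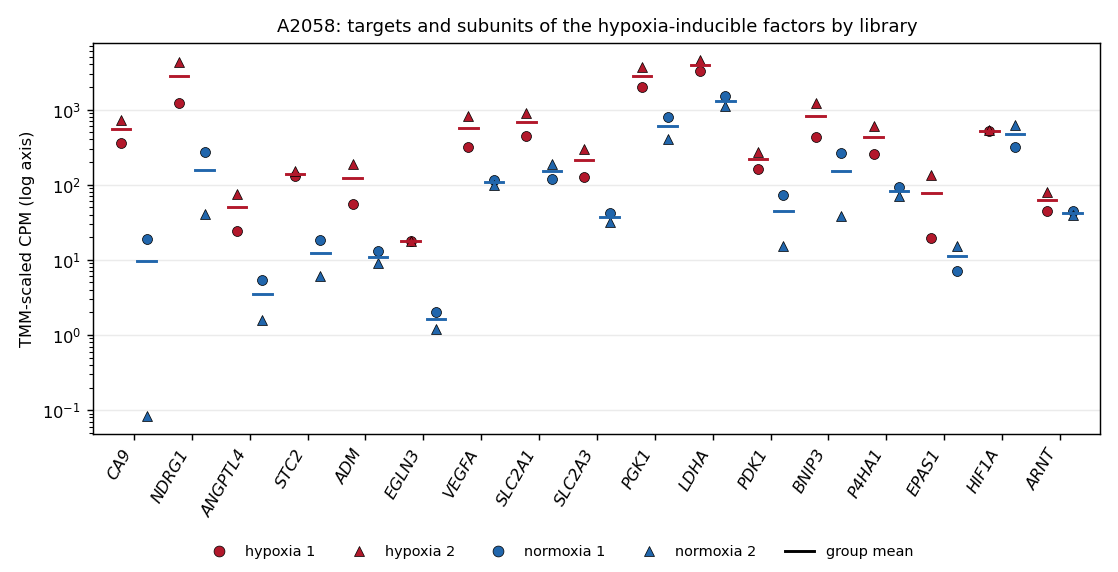
TMM-scaled CPM (log axis) of 14 HIF target genes and the subunits EPAS1, HIF1A and ARNT in the 4 A2058 libraries, hypoxia left (red) and normoxia right (blue) in each pair, with circles for library 1, triangles for library 2 and lines for group means. CA9 sits at 363 and 725 CPM in hypoxia, against 18.98 and 0.0826 CPM in normoxia, while HIF1A and ARNT overlap.

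The factors themselves gave a different picture from their targets. HIF1A had 516 and 529 CPM in hypoxia, against 315 and 616 CPM in normoxia (log2 change 0.17 ± 0.43 (SE)), so both hypoxic libraries lay inside the normoxic pair. ARNT had 44.6 and 79.2 CPM in hypoxia, against 45.2 and 39.1 CPM in normoxia (log2 change 0.55 ± 0.51 (SE)). EPAS1, the second alpha subunit, had 19.3 and 134 CPM in hypoxia, against 7.18 and 15.4 CPM in normoxia (log2 change 2.76 ± 0.83 (SE)), with most of the difference in hypoxic library 2. Some of the oxygen sensors are themselves fed back on by HIF. EGLN3 had 17.6 and 17.6 CPM in hypoxia, against 2.03 and 1.21 CPM in normoxia (log2 change 3.44 ± 0.69 (SE), 10.8-fold) and EGLN1 had 88.9 and 176 CPM in hypoxia, against 21.005 and 42.3 CPM in normoxia (log2 change 2.06 ± 0.47 (SE)). Both were separated higher. EGLN2 had 2.80 and 2.13 CPM in hypoxia, against 6.49 and 9.20 CPM in normoxia (log2 change -1.67 ± 0.74 (SE)) and was separated lower. CITED2, which competes with HIF for its coactivators, had 36.6 and 84.5 CPM in hypoxia, against 24.2 and 19.2 CPM in normoxia. VHL had 59.8 and 38.1 CPM in hypoxia, against 58.1 and 51.1 CPM in normoxia, and HIF1AN, the asparagine hydroxylase of HIF alpha, had 67.4 and 43.3 CPM in hypoxia, against 47.1 and 72.97 CPM in normoxia. Of 12 tested subunits and sensors, 2 were thus separated higher and 1 lower, with a median log2 change of 0.36. None of the 12 passed edgeR's adjusted threshold, and HIF1A turned to -0.25 on the log2 scale without normoxic library 1.

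HIF dimers recognise a core of 5 bases, written ACGTG or GCGTG. Both words were searched on both strands of the RefSeq promoter windows on GRCh38.p14, which run from 250 bases before to 50 after the start, and a match was counted on each strand, so that CACGTG counts as 2 overlapping matches. A window was found for 11520 of 14320 tested protein-coding genes off the mitochondrial genome, and 61% of these windows held at least 1 match. The share was 63% for genes separated higher (119 of 189) and 47.5% for genes separated lower (29 of 61). For 3 or more matches the order was the other way, with 15.9% (30) higher and 19.7% (12) lower, against 14.6% of all windows. Of the 30 HIF targets with a window 25 held a match (83.3%), and 13 (43.3%) held 3 or more, against 14.6% of all windows. The sequences are of 5 targets that were separated, and of the alpha subunits EPAS1 and HIF1A and of MITF, none of which was. LDHA, ALDOC, BHLHE40 and DDIT4 were picked from the separated targets for having the most matches. Their many matches follow from that choice and cannot be set against separation. BNIP3, with 6 matches, and VLDLR, with 5, were not separated. They run 5′ to 3′ on the gene's strand, with matches in capitals. CA9 (9: 35673678 to 35673977, + strand) held 1 match, whose first base lay at -18 from the start, and EPAS1 (2: 46297157 to 46297456, +) held 1 at -117. HIF1A (14: 61695263 to 61695562, +) held 1 at -204, and MITF (3: 69739214 to 69739513, +), the pigment cell regulator, held 1 at -175. The MITF window lies at the upstream end of the gene (69739435 to 69968337), and any start further in was not searched. LDHA (11: 18394313 to 18394612, +) held 6, with pairs on opposite strands at -185 and -184 and at -87 and -86. ALDOC (17: 28576846 to 28577145, - strand) held 5, BHLHE40 (3: 4979187 to 4979486, +) held 4 and DDIT4 (10: 72273674 to 72273973, +) held 4. EGLN3, P4HA2, PDK1 and TMEM45A were separated higher with no match in the window. A match is a string of letters and not a shown binding site. CDH13 and VEGFA are named here without a window.
CA9: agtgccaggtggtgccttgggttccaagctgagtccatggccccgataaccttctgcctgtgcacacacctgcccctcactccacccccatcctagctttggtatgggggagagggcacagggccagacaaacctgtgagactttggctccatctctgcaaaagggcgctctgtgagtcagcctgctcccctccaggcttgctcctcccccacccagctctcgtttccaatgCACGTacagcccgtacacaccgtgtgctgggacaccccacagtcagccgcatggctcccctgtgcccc
EPAS1: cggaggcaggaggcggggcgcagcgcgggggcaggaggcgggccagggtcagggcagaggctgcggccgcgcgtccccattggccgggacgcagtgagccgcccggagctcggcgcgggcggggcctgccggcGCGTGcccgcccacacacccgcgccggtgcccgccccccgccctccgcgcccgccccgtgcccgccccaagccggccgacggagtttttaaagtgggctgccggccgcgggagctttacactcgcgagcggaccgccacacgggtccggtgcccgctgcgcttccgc
HIF1A: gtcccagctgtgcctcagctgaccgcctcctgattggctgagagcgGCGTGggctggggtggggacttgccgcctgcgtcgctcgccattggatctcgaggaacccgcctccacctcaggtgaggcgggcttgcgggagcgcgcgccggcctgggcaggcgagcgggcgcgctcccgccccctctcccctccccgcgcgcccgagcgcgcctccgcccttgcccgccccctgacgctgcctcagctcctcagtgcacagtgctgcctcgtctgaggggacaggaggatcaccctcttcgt
MITF: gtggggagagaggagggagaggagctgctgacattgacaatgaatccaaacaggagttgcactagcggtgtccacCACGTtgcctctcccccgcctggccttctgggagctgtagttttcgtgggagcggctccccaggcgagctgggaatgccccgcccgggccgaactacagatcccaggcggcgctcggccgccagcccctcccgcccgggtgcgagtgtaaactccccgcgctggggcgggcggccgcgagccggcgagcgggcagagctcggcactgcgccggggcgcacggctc
LDHA: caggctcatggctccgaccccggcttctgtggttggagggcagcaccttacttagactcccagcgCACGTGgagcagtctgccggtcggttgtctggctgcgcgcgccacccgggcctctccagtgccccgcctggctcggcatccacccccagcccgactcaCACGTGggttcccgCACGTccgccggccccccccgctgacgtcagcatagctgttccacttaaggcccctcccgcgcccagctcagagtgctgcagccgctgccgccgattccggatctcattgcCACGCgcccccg
ALDOC: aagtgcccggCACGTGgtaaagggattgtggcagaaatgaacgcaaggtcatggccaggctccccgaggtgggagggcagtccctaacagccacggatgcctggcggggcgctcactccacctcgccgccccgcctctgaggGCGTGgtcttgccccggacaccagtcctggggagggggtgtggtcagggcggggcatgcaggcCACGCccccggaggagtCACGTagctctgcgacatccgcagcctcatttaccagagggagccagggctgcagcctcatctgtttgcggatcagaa
BHLHE40: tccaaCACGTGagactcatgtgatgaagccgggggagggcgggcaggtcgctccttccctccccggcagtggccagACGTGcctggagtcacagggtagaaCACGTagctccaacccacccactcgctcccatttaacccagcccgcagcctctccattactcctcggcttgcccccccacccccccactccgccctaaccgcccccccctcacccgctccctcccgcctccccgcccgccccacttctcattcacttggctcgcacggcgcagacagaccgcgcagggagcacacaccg
DDIT4: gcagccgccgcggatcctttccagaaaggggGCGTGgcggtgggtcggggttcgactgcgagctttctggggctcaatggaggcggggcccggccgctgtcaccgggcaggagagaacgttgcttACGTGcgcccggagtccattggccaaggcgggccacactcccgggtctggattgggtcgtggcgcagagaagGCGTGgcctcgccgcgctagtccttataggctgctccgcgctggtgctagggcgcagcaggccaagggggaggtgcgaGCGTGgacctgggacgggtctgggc

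Genes of sugar uptake and breakdown lay higher in hypoxia at most steps. Of 22 genes of glycolysis and glucose transport, 7 (31.8%) were separated higher and none lower, 20 had no overlap (20.5% of all tested genes), 17 had an unadjusted p under 0.05 (5.62%) and DESeq2 called 7 (1.26%). The median log2 change was 1.53 (0.94 without hypoxic library 2), and 18 were separated without hypoxic library 1 and 16 without normoxic library 1. Lists share members, and a gene is counted in each list that holds it, so the lists are not independent results. Of the genes separated here, SLC2A1, PGK1, LDHA, PFKFB3, PFKFB4 and ALDOC are also among the HIF targets. So are CA9, VEGFA, ANGPTL4, EGLN3, PDK1, INSIG2, P4HA1, P4HA2 and BHLHE40, which are counted in other lists as well. SLC2A1, the widespread glucose transporter, had 442 and 908 CPM in hypoxia, against 119.5 and 187 CPM in normoxia (log2 change 2.14 ± 0.56 (SE)). SLC2A3, a transporter of higher affinity, had 128 and 299 CPM in hypoxia, against 42.5 and 32.1 CPM in normoxia (log2 change 2.52 ± 0.61 (SE)). PGK1, which makes the first ATP of the pathway, had 1976 and 3682 CPM in hypoxia, against 798 and 401 CPM in normoxia (log2 change 2.24 ± 0.49 (SE)). LDHA, which turns pyruvate into lactate, had 3302 and 4494 CPM in hypoxia, against 1498 and 1120.3 CPM in normoxia (log2 change 1.57 ± 0.40 (SE)). All of these were separated. PFKFB3 and PFKFB4 make the activator of phosphofructokinase. PFKFB3 had 271 and 347 CPM in hypoxia, against 92.7 and 127 CPM in normoxia, and PFKFB4 had 225 and 335 CPM in hypoxia, against 92.9 and 49.9 CPM in normoxia. ALDOC, the brain-type aldolase, had 174 and 598 CPM in hypoxia, against 60.3 and 3.61 CPM in normoxia, with the normoxic pair spread widely (log2 change 3.59 ± 1.40 (SE)). ENO2 had 282 and 1353 CPM in hypoxia, against 247 and 42.1 CPM in normoxia, so its weaker hypoxic library barely exceeded normoxic library 1 (log2 change 2.502 ± 1.22 (SE)). The libraries of 2 genes overlapped, the isozymes LDHB and PFKM. LDHB had 10.7 and 12.1 CPM in hypoxia, against 16.7 and 9.86 CPM in normoxia (log2 change -0.22 ± 0.48 (SE)), and PFKM had 107 and 188 CPM in hypoxia, against 152 and 111 CPM in normoxia (log2 change 0.17 ± 0.45 (SE)).

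Genes that steer glucose into glycogen or keep pyruvate out of mitochondria went the same way in part. GBE1, the branching enzyme of glycogen, had 171 and 517 CPM in hypoxia, against 75.8 and 40.3 CPM in normoxia (log2 change 2.56 ± 0.53 (SE)). The pyruvate dehydrogenase kinases PDK1 and PDK3 switch off entry of pyruvate into the TCA cycle. PDK1 had 161 and 276 CPM in hypoxia, against 72.7 and 15.5 CPM in normoxia (log2 change 2.31 ± 0.70 (SE)), and PDK3 had 70.4 and 217 CPM in hypoxia, against 30.5 and 18.5 CPM in normoxia (log2 change 2.55 ± 0.57 (SE)). Of 19 genes tested on this list these 3 were separated higher and none lower, with a median log2 change of 0.60. PDK4 had 63.7 and 155 CPM in hypoxia, against 164 and 47.2 CPM in normoxia, with overlapping libraries. The lactate exporter SLC16A3 had 333 and 466 CPM in hypoxia, against 197 and 117 CPM in normoxia (log2 change 1.35 ± 0.52 (SE)), and its chaperone BSG had 859 and 1884 CPM in hypoxia, against 717 and 576 CPM in normoxia. Of 12 genes of pH regulation CA9 was the only separated one.

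The transcripts of the mitochondrial genome were lower throughout. All 13 of its mRNAs, which encode parts of respiratory complexes and of ATP synthase, were separated lower, and the median log2 change was -3.40. All 13 had an unadjusted p under 0.05 (3.54% of all tested genes, lower), none passed edgeR's adjusted threshold and DESeq2 called 12. MT-ND6, the one mRNA of the light strand, had 15.7 and 13.2 CPM in hypoxia, against 424 and 246 CPM in normoxia (log2 change -4.54 ± 0.65 (SE), 23.2-fold lower). MT-ND2 had 288 and 389 CPM in hypoxia, against 8638 and 3178 CPM in normoxia (log2 change -4.12 ± 0.58 (SE), edgeR adjusted p = 0.109). MT-CYB, of complex III, had 1106 and 1079 CPM in hypoxia, against 17755 and 6689 CPM in normoxia (log2 change -3.48 ± 0.62 (SE)). In each of these the hypoxic pair was even and the normoxic pair was not, with normoxic library 1 the higher. MT-CO1, of complex IV, had 1932 and 4240.0 CPM in hypoxia, against 33246 and 12310.3 CPM in normoxia (log2 change -2.88 ± 0.84 (SE)). MT-ND5 had 768 and 1949.9 CPM in hypoxia, against 10643 and 4198 CPM in normoxia (log2 change -2.45 ± 0.83 (SE), 5.46-fold lower), the smallest difference of the 13. Both ribosomal RNAs were separated lower, and 8 of 11 tested tRNAs were, with no overlap in all 11 (18.6% of all tested genes had no overlap and were lower). These RNAs are poorly captured by selection for poly(A) tails, and MT-RNR2 had 1719 and 4305 CPM in hypoxia, against 28092 and 10125 CPM in normoxia. Most tRNAs were near the limit of a count of 0 in hypoxia (3 counts, 0.0674 and 0.0718 CPM). MT-TQ had 0.126 and 0.0575 CPM in hypoxia, against 5.46 and 4.10 CPM in normoxia, and MT-TE had no count in hypoxia. A tRNA could pass the low-count filter through normoxic libraries alone, so the shared direction of the tested tRNAs is partly set by the filter. The normoxic pair differed in the share of counts on the mitochondrial genome, 20.1% and 7.64%, whose part in the size of the difference was not tested. Without normoxic library 1 the median log2 change of the mRNAs was -2.32, and all 13 were still separated lower.

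Of 40 nuclear-encoded respiratory and ATP synthase genes, 1 was separated higher and none lower (1.31% and 0.784% of all tested genes), and the median log2 change was 0.10 (-0.36 without normoxic library 2 and 0.62 without normoxic library 1). The one separated was NDUFA4L2, a HIF-induced relative of a complex IV subunit, with 57.2 and 299 CPM in hypoxia, against 1.74 and 0.358 CPM in normoxia (log2 change 7.40 ± 1.10 (SE), edgeR adjusted p = 0.109). Its gap between the nearest libraries, 25.7-fold with 0.5 CPM added, was the widest among genes separated higher. NDUFA4, the gene it resembles, had 78.7 and 94.4 CPM in hypoxia, against 159 and 45.5 CPM in normoxia. ATP5MC1, a subunit of the ATP synthase ring, had 63.7 and 51.97 CPM in hypoxia, against 172 and 70.4 CPM in normoxia (log2 change -1.07 ± 0.57 (SE)). Of 21 TCA cycle genes none was separated, and the median log2 change of 0.30 was -0.14 without hypoxic library 2 and 0.023 without normoxic library 2. SUCLG2, which had the smallest p, had 69.8 and 136 CPM in hypoxia, against 34.5 and 53.004 CPM in normoxia. Of 22 genes of mitochondrial transcription and RNA stability none was separated (median log2 change -0.26). TFAM, which packs and transcribes the mitochondrial genome, had 62.6 and 37.3 CPM in hypoxia, against 61.3 and 55.5 CPM in normoxia, and its polymerase POLRMT had 85.1 and 125 CPM in hypoxia, against 98.2 and 125 CPM in normoxia. FASTKD5, an RNA-processing factor, had 22.9 and 6.52 CPM in hypoxia, against 37.4 and 36.2 CPM in normoxia (log2 change -1.32 ± 0.56 (SE), edgeR unadjusted p = 0.0369). Of 8 nuclear copies of mitochondrial genes tested, 4 were separated lower, among them MTATP6P1, with 193 and 287 CPM in hypoxia, against 3916 and 1195 CPM in normoxia. Such copies share sequence with the originals, so their counts are uncertain.

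**Figure D2:**
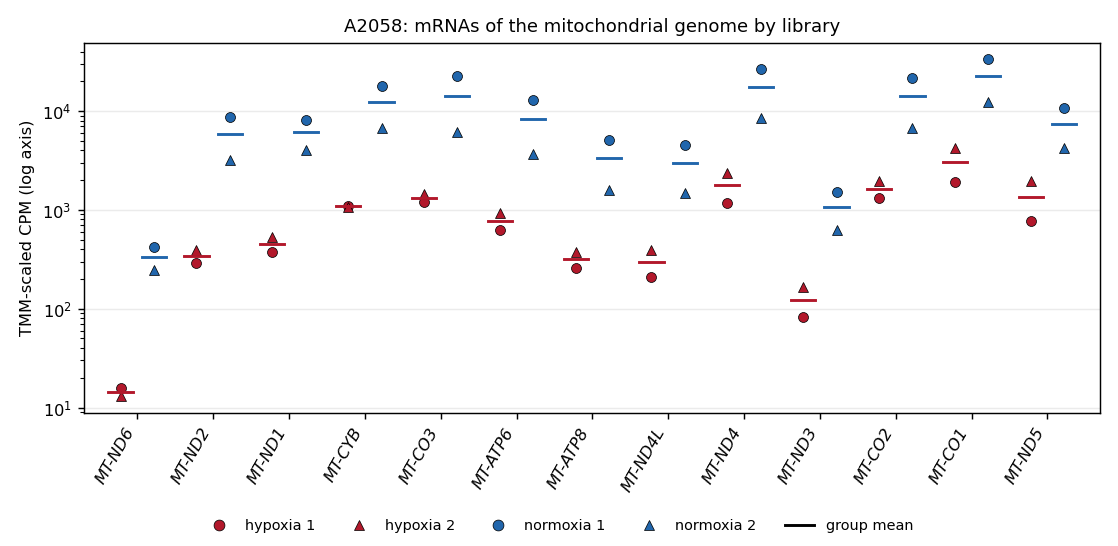
TMM-scaled CPM (log axis) of the 13 mRNAs of the mitochondrial genome in the 4 A2058 libraries, hypoxia left (red) and normoxia right (blue), with circles for library 1, triangles for library 2 and lines for group means, ordered from the lowest log2 change (MT-ND6, -4.54) to the highest (MT-ND5, -2.45). In every gene both hypoxic libraries lie below both normoxic ones, and normoxic library 1 is the highest.

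Genes of sterol synthesis and uptake were higher as a group. Of 25 tested, 7 (28%) were separated higher, against 1.31% of all tested genes, and none lower. In edgeR 11 had an unadjusted p under 0.05 and were higher (5.62%), and DESeq2 called 5 higher (1.26%). The median log2 change was 0.88. The separated members were regulators as well as enzymes. SREBF2, the transcription factor that drives the pathway, had 434 and 666 CPM in hypoxia, against 103 and 156 CPM in normoxia (log2 change 2.09 ± 0.64 (SE)). INSIG1 and INSIG2 hold that factor back in the endoplasmic reticulum. INSIG1 had 154 and 384 CPM in hypoxia, against 28.4 and 37.6 CPM in normoxia (log2 change 3.03 ± 0.92 (SE)), and INSIG2, a HIF target, had 61.6 and 123 CPM in hypoxia, against 23.4 and 9.83 CPM in normoxia (log2 change 2.47 ± 0.56 (SE)). The carrier STARD4 had 26.4 and 42.7 CPM in hypoxia, against 4.67 and 7.38 CPM in normoxia. Of the enzymes, MSMO1 had 27.1 and 94.99 CPM in hypoxia, against 6.31 and 10.3 CPM in normoxia, DHCR7 had 123 and 119 CPM in hypoxia, against 29.96 and 52.5 CPM in normoxia and IDI1 had 76.7 and 87.6 CPM in hypoxia, against 31.6 and 36.95 CPM in normoxia. EBP and PMVK, enzymes of the same pathway, had log2 changes of -0.08 and -0.06. Without hypoxic library 1, 11 members were separated higher, and 13 without normoxic library 2, settings that also raise the count over all tested genes.

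Among 25 genes of fatty acids, lipid droplets and lipoproteins, 5 (20%) were separated higher, against 1.31% of all tested genes, and none lower. The median log2 change was 0.67, and DESeq2 called 5 higher (1.26%). The count of separated genes was 8 without either hypoxic library or without normoxic library 2. SCD, which desaturates fatty acids and itself consumes oxygen, had 2795 and 6383 CPM in hypoxia, against 364 and 484 CPM in normoxia (log2 change 3.43 ± 0.70 (SE), 10.8-fold). FADS1, another desaturase, had 234 and 223 CPM in hypoxia, against 67.9 and 97.3 CPM in normoxia. LRP1, a lipoprotein receptor, had 100.1 and 243 CPM in hypoxia, against 41.4 and 46.1 CPM in normoxia, and LPL, which splits the fat of lipoproteins, had 33.3 and 39.6 CPM in hypoxia, against 14.9 and 13.5 CPM in normoxia. FASN, the fatty acid synthase, had 689.7 and 501 CPM in hypoxia, against 198 and 551 CPM in normoxia and overlapped. CPT1A, the gate to mitochondrial fatty acid oxidation, had 13.2 and 8.16 CPM in hypoxia, against 22.8 and 29.3 CPM in normoxia (log2 change -1.28 ± 0.42 (SE), edgeR unadjusted p = 0.011), the one member with an unadjusted p under 0.05 in the lower direction.

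**Figure D3:**
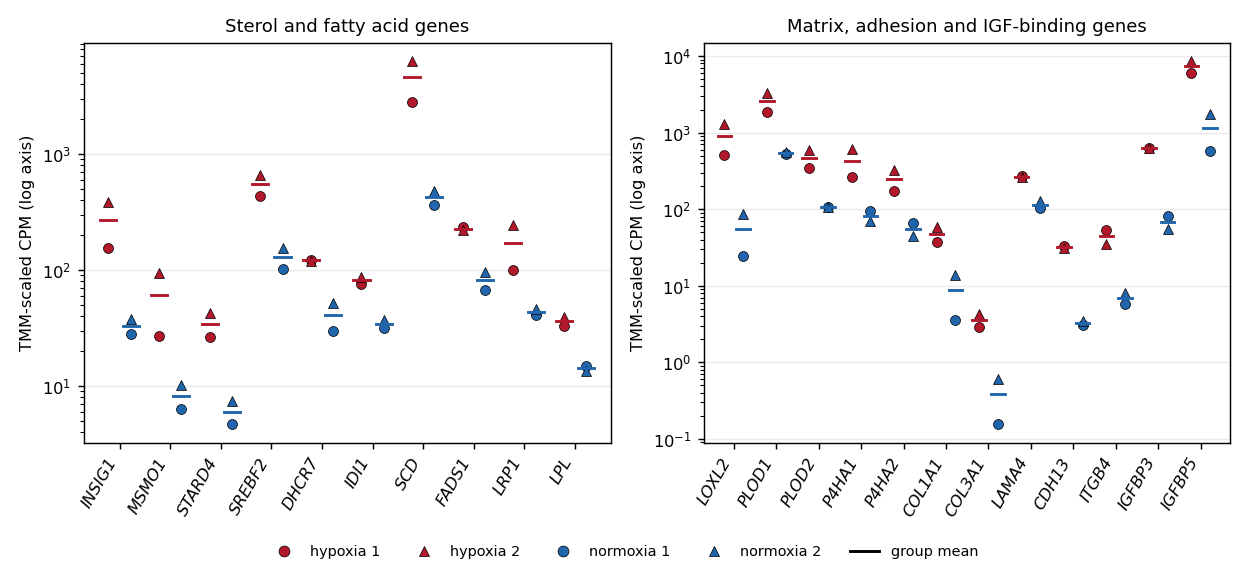
TMM-scaled CPM (log axis) of sterol and fatty acid genes (left panel) and of matrix, adhesion and IGF-binding genes (right panel) in the 4 A2058 libraries, with hypoxia left (red), normoxia right (blue), circles for library 1, triangles for library 2 and lines for group means. All genes shown are separated by at least 2-fold, and CDH13 has 32.5 and 30.9 CPM in hypoxia, against 3.03 and 3.41 CPM in normoxia.

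Enzymes that finish collagen were higher beside some of the collagens. Of 19 tested collagen-modifying genes 5 (26.3%) were separated higher, against 1.31% of all tested genes, and none lower. DESeq2 called 5 higher (1.26%), and the median log2 change was 0.83. Without hypoxic library 1 the count of separated genes was 8, and without normoxic library 2 it was 9. P4HA1 and P4HA2 are the catalytic subunits that hydroxylate proline with oxygen. P4HA1 had 259 and 604 CPM in hypoxia, against 93.7 and 70.8 CPM in normoxia, and P4HA2 had 174 and 323 CPM in hypoxia, against 66.3 and 44.4 CPM in normoxia (log2 change 2.16 ± 0.43 (SE)). PLOD1 and PLOD2 hydroxylate lysine for cross-links. PLOD1 had 1873 and 3274 CPM in hypoxia, against 529 and 553 CPM in normoxia (log2 change 2.25 ± 0.43 (SE)), and PLOD2 had 340.0 and 585 CPM in hypoxia, against 105.3 and 106 CPM in normoxia. LOXL2, a secreted amine oxidase that cross-links collagen, had 504 and 1285 CPM in hypoxia, against 24.2 and 86.9 CPM in normoxia (log2 change 4.01 ± 0.86 (SE)). P3H1, another prolyl hydroxylase, and SERPINH1, a collagen chaperone, had log2 changes of 0.66 and 0.31 and were not separated.

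Of 25 collagen chains and matrix proteins, 5 (20%) were separated higher (1.31% of all tested genes), namely COL1A1, COL3A1, COL5A1, COL6A3 and LAMA4. The median log2 change was 0.86. COL1A1, the chain of type I collagen, had 37.4 and 58.6 CPM in hypoxia, against 3.56 and 13.8 CPM in normoxia (log2 change 2.47 ± 0.78 (SE)). COL3A1, a fibrillar collagen, had 2.90 and 4.23 CPM in hypoxia, against 0.154 and 0.606 CPM in normoxia. LAMA4, a laminin chain of vessel walls, had 268 and 262 CPM in hypoxia, against 103 and 126 CPM in normoxia (log2 change 1.21 ± 0.37 (SE)). FN1, fibronectin, had 3649 and 5071 CPM in hypoxia, against 264 and 2433 CPM in normoxia, with normoxic library 1 far below the other 3. THBS1, thrombospondin, had 187 and 36.1 CPM in hypoxia, against 8.23 and 1131 CPM in normoxia, with overlap. COL1A1 and COL3A1 are also fibroblast markers. Of the 10 fibroblast markers 4 (40%) were separated higher (1.31% of all tested genes), namely COL1A1, COL3A1, PDGFRA and FAP. That count was 6 without hypoxic library 1 or normoxic library 2. All 10 had a log2 change above 0 (50.1% of all tested genes), and 8 had no overlap and were higher (20.5%). In edgeR 7 had an unadjusted p under 0.05 and were higher (5.62%), and the median log2 change was 2.21. FAP had 23.8 and 31.4 CPM in hypoxia, against 4.77 and 7.43 CPM in normoxia, PDGFRA had 3.60 and 2.44 CPM in hypoxia, against 0.590 and 0.688 CPM in normoxia, and LUM had 16.6 and 35.04 CPM in hypoxia, against 19.2 and 10.96 CPM in normoxia. The part of the fibroblast markers in the collagen result was not tested. Normoxic library 1 had the lowest list mean for collagens (log2 CPM 4.17, against 6.11 and 6.31 in hypoxia and 5.74 in normoxic library 2), and the count of separated genes was 15 without normoxic library 2, 9 without hypoxic library 1, 4 with mitochondrial genes left out and 3 with library totals in place of TMM. DESeq2 called none of the 25.

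Of 19 genes of matrix proteolysis and plasminogen activation 1 (5.26%) was separated higher (1.31% of all tested genes). This was SERPINE2, with 1534 and 1581 CPM in hypoxia, against 572 and 684 CPM in normoxia. Without hypoxic library 2, 3 of the 19 were separated higher. MMP2 had 361 and 487 CPM in hypoxia, against 131 and 216 CPM in normoxia, while MMP1 had 1045 and 186 CPM in hypoxia, against 467 and 949 CPM in normoxia and overlapped. Among 23 integrins and cadherins 3 (13%) were separated higher (1.31% of all tested genes), CDH13, ITGB4 and CDH3, and none lower. CDH13 was the one called. ITGB4, the beta subunit of hemidesmosomes, had 53.97 and 34.7 CPM in hypoxia, against 5.77 and 8.01 CPM in normoxia. CDH3, P-cadherin, had 4.50 and 3.91 CPM in hypoxia, against 0.154 and 1.46 CPM in normoxia. CDH2, N-cadherin, had 269 and 154 CPM in hypoxia, against 72.7 and 239 CPM in normoxia (log2 change 0.44 ± 0.61 (SE)), and MCAM, the melanoma adhesion molecule, had 943 and 471 CPM in hypoxia, against 414 and 1033 CPM in normoxia; both overlapped.

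Of 14 genes of IGF-binding proteins and insulin signalling 3 (21.4%) were separated higher, against 1.31% of all tested genes, and none lower. IGFBP3, the main carrier of IGFs in blood, had 624 and 638 CPM in hypoxia, against 81.4 and 55.8 CPM in normoxia (log2 change 3.20 ± 0.54 (SE), 9.20-fold, edgeR adjusted p = 0.143). IGFBP5 had 5954 and 8648 CPM in hypoxia, against 577 and 1748 CPM in normoxia (log2 change 2.65 ± 0.63 (SE)), and IGFBP6 had 11.96 and 12.2 CPM in hypoxia, against 5.26 and 3.80 CPM in normoxia. The receptor IGF1R had 176 and 224 CPM in hypoxia, against 68.1 and 131 CPM in normoxia, and IRS2, an adaptor of the insulin receptor, had 210.3 and 977 CPM in hypoxia, against 217 and 311 CPM in normoxia. Without hypoxic library 1 the count was 6, and without normoxic library 2 it was 7.

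Genes that build sugar chains, the subject of the study's title, and proteoglycan cores reached the 2-fold gap about as often as other genes. In the 7 lists that follow, 3 of 156 genes (1.92%) were separated higher, against 1.31% of all tested genes, and none lower. FUT11, a fucosyltransferase, had 88.2 and 172 CPM in hypoxia, against 27.5 and 22.7 CPM in normoxia (log2 change 2.38 ± 0.41 (SE), edgeR adjusted p = 0.15), and was the 1 separated gene of 14 in fucosylation. FUT8, which adds core fucose, had 46.1 and 15.6 CPM in hypoxia, against 17.8 and 27.04 CPM in normoxia. ST8SIA4, which builds polysialic acid, had 7.998 and 9.17 CPM in hypoxia, against 2.82 and 3.55 CPM in normoxia (log2 change 1.43 ± 0.54 (SE)), and was the 1 of 24 in sialic acid transfer and supply. HAS2, a hyaluronan synthase, had 6.52 and 6.50 CPM in hypoxia, against 2.05 and 2.34 CPM in normoxia (log2 change 1.57 ± 1.02 (SE)), and was the 1 of 35 in glycosaminoglycan synthesis. ST6GAL1 and ST3GAL1 cap chains with sialic acid. ST6GAL1 had 136 and 173 CPM in hypoxia, against 90.3 and 77.2 CPM in normoxia, and ST3GAL1 had 42.7 and 56.2 CPM in hypoxia, against 15.3 and 32.9 CPM in normoxia. ST3GAL6 had 39.8 and 32.4 CPM in hypoxia, against 111 and 34.1 CPM in normoxia (log2 change -1.01 ± 0.50 (SE)). CHPF, which polymerises chondroitin, had 334 and 782 CPM in hypoxia, against 191 and 180.1 CPM in normoxia (log2 change 1.59 ± 0.41 (SE)) and did not reach a 2-fold gap. In the other 3 lists none was separated: galectins, poly-LacNAc and N-glycan branching (26 genes, median log2 change 0.42), O-linked glycosylation (18 genes, 0.27) and hexosamine and nucleotide sugar supply (20 genes, 0.07). A log2 change above 0 was seen in 23, 12 and 11 genes of these lists (50.1% of all tested genes). MGAT5, which branches N-glycans, had 192 and 276 CPM in hypoxia, against 70.7 and 144 CPM in normoxia, and LGALS3, galectin-3, had 77.3 and 139 CPM in hypoxia, against 178 and 79.7 CPM in normoxia. MAN1B1, a mannosidase, had 118 and 181 CPM in hypoxia, against 70.3 and 74.6 CPM in normoxia, C1GALT1, which makes the core 1 O-glycan, had 72.1 and 114 CPM in hypoxia, against 40.3 and 34.5 CPM in normoxia, and MPI, which links glycolysis to mannose, had 102 and 197 CPM in hypoxia, against 69.3 and 28.3 CPM in normoxia. Of 19 proteoglycan cores none was separated, but 18 had a log2 change above 0 and the median was 1.15. No overlap, higher in hypoxia, was seen in 13 of them (20.5% of all tested genes). In edgeR 7 had an unadjusted p under 0.05 and were higher (5.62%). GPC6, a glypican, had 7.75 and 24.5 CPM in hypoxia, against 5.51 and 2.59 CPM in normoxia (log2 change 1.99 ± 0.59 (SE)), and VCAN, versican, had 54.3 and 23.5 CPM in hypoxia, against 10.7 and 14.3 CPM in normoxia.

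Other oxygen-using and regulatory genes gave results that differed by list. Of 21 demethylases of histones, DNA and RNA 2 (9.52%) were separated higher, against 1.31% of all tested genes. Of the 21, 18 had a log2 change above 0 (50.1% of all tested genes) and 15 had no overlap and were higher (20.5%). In edgeR 8 had an unadjusted p under 0.05 and were higher (5.62%), and DESeq2 called 5 higher (1.26%). TET1, which oxidises methylated cytosine, had 27.2 and 127 CPM in hypoxia, against 10.3 and 10.1 CPM in normoxia (log2 change 2.92 ± 0.62 (SE)), and KDM5B, a histone H3 lysine demethylase, had 128 and 317 CPM in hypoxia, against 56.8 and 55.4 CPM in normoxia. KDM3A, a HIF target, had 76.3 and 173 CPM in hypoxia, against 54.3 and 33.4 CPM in normoxia. Of 17 clock genes 2 (11.8%) were separated higher (1.31% of all tested genes), the repressors BHLHE40 and BHLHE41. BHLHE41 had 26.4 and 92.5 CPM in hypoxia, against 8.62 and 3.63 CPM in normoxia (log2 change 3.28 ± 0.77 (SE)), while CLOCK had 44.1 and 22.4 CPM in hypoxia, against 21.3 and 55.2 CPM in normoxia. TF, the iron carrier transferrin, was the 1 separated gene of 14 in iron and metal handling and had 97.5 and 244 CPM in hypoxia, against 20.3 and 2.59 CPM in normoxia (log2 change 3.90 ± 0.84 (SE)). ME1, malic enzyme, was the 1 of 22 in the antioxidant list and had 151 and 322 CPM in hypoxia, against 57.4 and 43.5 CPM in normoxia (log2 change 2.23 ± 0.42 (SE)). BST2, tetherin, was the 1 of 21 in the interferon list and had 14.5 and 16.4 CPM in hypoxia, against 2.98 and 3.33 CPM in normoxia (log2 change 2.29 ± 0.72 (SE)). Of 17 class I antigen presentation genes none was separated. In edgeR 5 of them had an unadjusted p under 0.05 in the higher direction (5.62% of all tested genes) and 1 in the lower (3.54%). HLA-B had 51.6 and 141 CPM in hypoxia, against 14.95 and 26.4 CPM in normoxia, though reads of HLA genes are hard to assign. Hypoxia-linked long noncoding RNAs had 1 of 13 separated, SNHG12, which was lower, with 9.09 and 7.42 CPM in hypoxia, against 37.3 and 28.5 CPM in normoxia. Without hypoxic library 2, 4 of the 13 were separated lower and 1 higher. UCA1 had 0.968 and 0.402 CPM in hypoxia, against 0 and 0.0275 CPM in normoxia, at or under the limit of a count of 0 in normoxia (3 counts, 0.0754 and 0.0887 CPM).

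Several pigment genes were highest in hypoxic library 2. None of 25 was separated, and the median log2 change was 0.54, with 6 at or below 0 (the lowest at -1.03). This median was -0.058 without hypoxic library 2 and 0.87 without hypoxic library 1. S100B, a calcium-binding marker of the lineage, was lowest in hypoxic library 2, with 116 and 59.7 CPM in hypoxia, against 132 and 71.3 CPM in normoxia. MITF had 195 and 539 CPM in hypoxia, against 161 and 161 CPM in normoxia (log2 change 1.19 ± 0.49 (SE)), TYR had 108 and 191 CPM in hypoxia, against 9.36 and 88.5 CPM in normoxia, and PMEL had 516 and 2946 CPM in hypoxia, against 358 and 698 CPM in normoxia (log2 change 1.71 ± 0.80 (SE)). PMEL was at -0.0283 on the log2 scale without hypoxic library 2. AXL, a receptor of the invasive state, had 267 and 342 CPM in hypoxia, against 48.1 and 321 CPM in normoxia (log2 change 0.72 ± 0.78 (SE)), and its value was -0.0924 without normoxic library 1. KIT had 5.999 and 55.4 CPM in hypoxia, against 4.80 and 3.50 CPM in normoxia (log2 change 2.89 ± 1.00 (SE)). Of 23 genes of the dedifferentiated and invasive states none was separated, and the median log2 change of 0.26 was 2.10 without normoxic library 2 and -0.087 without normoxic library 1. PDGFRB, a growth factor receptor that is also a fibroblast marker, had 2.13 and 2.24 CPM in hypoxia, against 0.692 and 0.881 CPM in normoxia (log2 change 1.47 ± 0.42 (SE)).

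Growth and stress lists had no separated member. With 1.31% of all tested genes separated higher and 0.784% lower, a list of this length can easily have none. None of the 25 cell cycle genes was separated or had an unadjusted p under 0.05, with a median log2 change of -0.07; TOP2A, which had the smallest p, had 311 and 706 CPM in hypoxia, against 229 and 290.0 CPM in normoxia. No gene was separated among 18 DNA repair genes (RAD52 had 5.77 and 4.23 CPM in hypoxia, against 10.1 and 8.48 CPM in normoxia), 18 p53 targets (RRM2B had 23.8 and 45.7 CPM in hypoxia, against 15.1 and 17.6 CPM in normoxia), 16 MYC network genes (FBL had 178 and 399 CPM in hypoxia, against 180.2 and 117 CPM in normoxia) or 19 MAPK output genes (ETV4 had 157 and 72.03 CPM in hypoxia, against 189 and 136 CPM in normoxia). Of the 18 DNA repair genes 3 had a log2 change above 0 (50.1% of all tested genes), with a median of -0.29. In that list 6 had no overlap and were lower (18.6% of all tested genes) and 1 was higher (20.5%). The unfolded protein response list had none of 25 separated, and HSP90B1 had 954 and 1702 CPM in hypoxia, against 701 and 708 CPM in normoxia. All 25 ribosomal protein genes on the list, which is a part of that family, had a log2 change above 0 (50.1% of all tested genes did), from 0.20 to 1.15. None of the 25 was separated, and RPLP0 had 1454 and 2243 CPM in hypoxia, against 814 and 850.1 CPM in normoxia. Hypoxic library 2 was the highest and normoxic library 2 the lowest of the 4 in the mean of the 25. RPL36A, a ribosomal protein gene not on the list, was separated lower, with 2.29 and 1.64 CPM in hypoxia, against 7.10 and 6.61 CPM in normoxia. Of 15 heat shock genes 14 had a log2 change below 0, and none was separated; HSPA1A had 74.7 and 22.7 CPM in hypoxia, against 116 and 187 CPM in normoxia, and its copy HSPA1B shares reads with it. SRSF2 had 241 and 103 CPM in hypoxia, against 339.9 and 359.8 CPM in normoxia among 17 splicing genes, and CD276 had 150.4 and 155 CPM in hypoxia, against 76.5 and 115 CPM in normoxia among 12 adenosine and checkpoint genes, with none separated in either list.

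**Figure D4:**
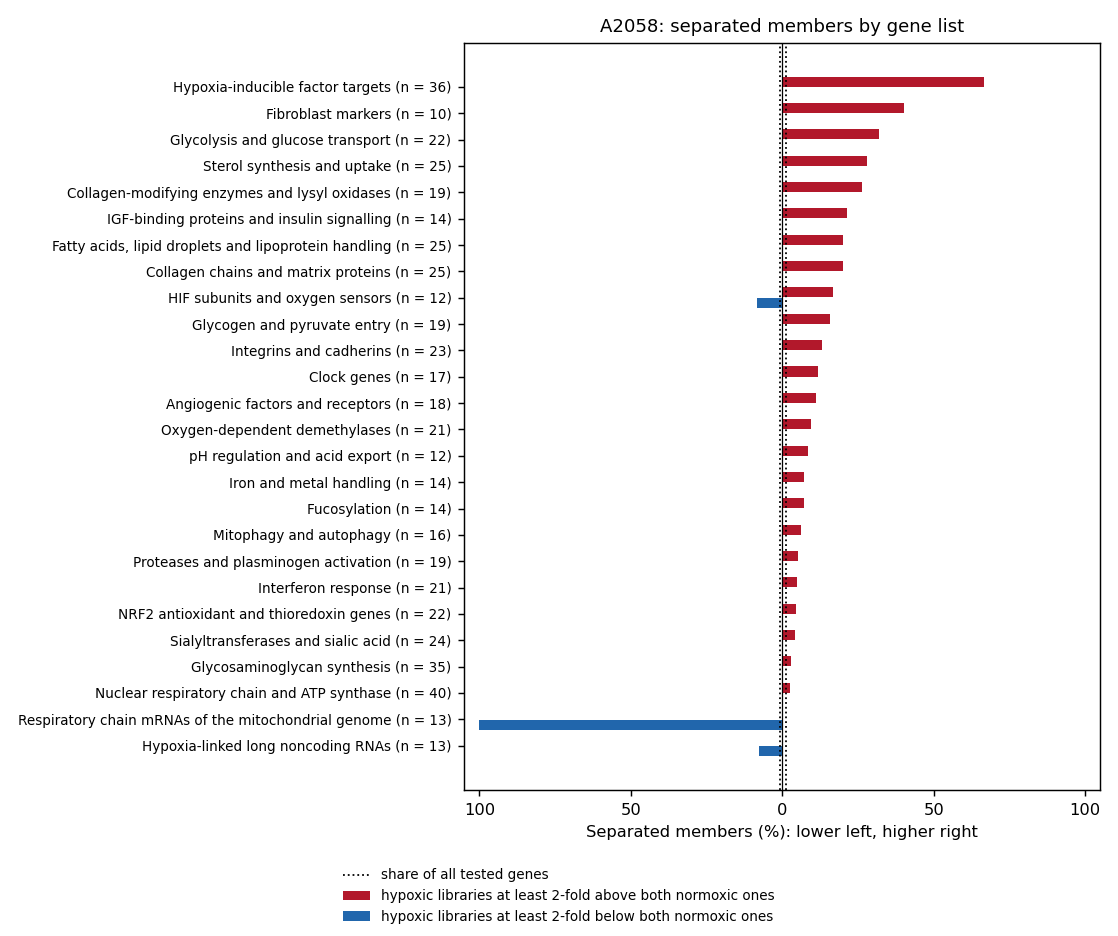
Percent of the tested members of each list that were separated by at least 2-fold in A2058, higher in hypoxia to the right (red) and lower to the left (blue), with n the members tested and dotted lines for all tested genes (1.31% and 0.784%). Lists with no separated member are left out; the HIF targets reach 66.7% and the mitochondrial mRNAs 100%.

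**Figure D5:**
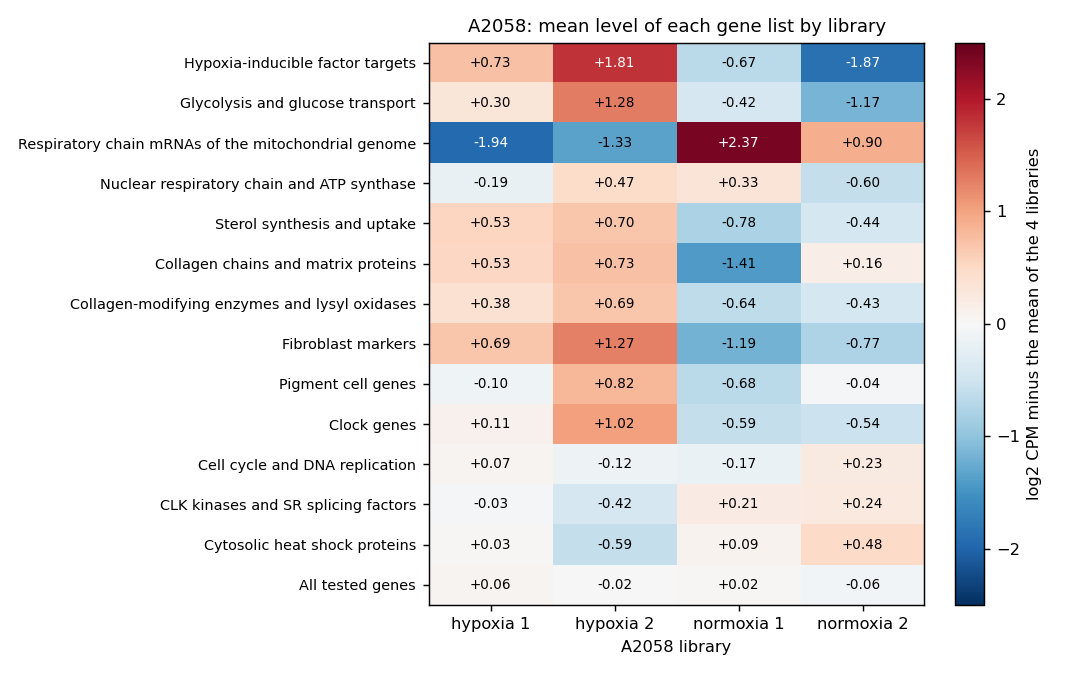
Mean log2 CPM of 13 gene lists and of all tested genes in the 4 A2058 libraries (hypoxia 1 and 2, then normoxia 1 and 2), each as the difference from the mean over the 4. HIF targets stand at +0.73 and +1.81 in hypoxia, against -0.67 and -1.87 in normoxia, and the mean over all tested genes is within 0.06 of 0.

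Outside the lists, several genes were separated as widely as the HIF targets (named after their values were seen). PAM, which amidates peptide hormones, had 277 and 540.1 CPM in hypoxia, against 73.6 and 71.04 CPM in normoxia (log2 change 2.498 ± 0.40 (SE)). FKBP9, a folding enzyme of the endoplasmic reticulum, had 612 and 1224 CPM in hypoxia, against 129.6 and 145 CPM in normoxia (log2 change 2.74 ± 0.45 (SE)). NRN1, neuritin, had 211 and 1287 CPM in hypoxia, against 51.9 and 6.28 CPM in normoxia (log2 change 4.69 ± 1.39 (SE)). SLAMF9 had 41.3 and 270.1 CPM in hypoxia, against 6.21 and 1.68 CPM in normoxia and BEND5 had 5.999 and 7.70 CPM in hypoxia, against 0.154 and 0.0275 CPM in normoxia. In the lower direction, SPHK1, which makes sphingosine phosphate, had 23.2 and 11.7 CPM in hypoxia, against 60.8 and 66.4 CPM in normoxia (log2 change -1.87 ± 0.38 (SE)). TAF1C, a factor of ribosomal RNA transcription, had 65.9 and 33.5 CPM in hypoxia, against 182 and 178 CPM in normoxia (log2 change -1.86 ± 0.37 (SE)). ATAD3B, a protein of mitochondrial membranes, had 28.6 and 12.6 CPM in hypoxia, against 88.8 and 107 CPM in normoxia, and COL7A1, the collagen of anchoring fibrils, had 10.3 and 5.37 CPM in hypoxia, against 28.7 and 34.01 CPM in normoxia. In these 4 genes hypoxic library 2 was the lower of its pair.

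The A2058 change was also tested against the mean change of A375 and SKMEL-5 in the same fit. Libraries labelled A375 and SKMEL-5 correlated with each other (Pearson r 0.912 to 0.99 across genes) as closely as libraries within A375 (0.917 to 0.982) or within SKMEL-5 (0.928 to 0.978). Those of A2058 correlated with them at 0.81 to 0.88. Whether the libraries labelled A375 and SKMEL-5 are different lines was not tested, and each difference from them rests on those labels. No gene of 19636 (0%) passed edgeR's adjusted threshold, 652 (3.32%) had an unadjusted p under 0.05, DESeq2 called 16 and limma-voom 0. By smallest p, among protein-coding genes reaching 10 CPM on average in an A2058 group, the first 8 were CDH13, ARL10, NDUFA4L2, RGS5, IGSF9, EGLN3, NXPH4 and TNS1. For CDH13 the log2 change was 3.30 in A2058, against 0.88 in each of A375 and SKMEL-5, a difference of 2.42 ± 0.36 (SE, unadjusted p = 2.98e-05, edgeR adjusted p = 0.585). NDUFA4L2 stood at 7.40 in A2058, against 0.84 in A375 and 1.74 in SKMEL-5. EGLN3 stood at 3.44, against -0.54 in A375 and 0.20 in SKMEL-5. ARL10, a small GTPase relative, had 63.2 and 71.6 CPM in hypoxia, against 7.49 and 9.11 CPM in normoxia in A2058, a log2 change of 3.02, against 0.00 in A375 and -0.48 in SKMEL-5. RGS5, a brake on G protein signals, had 245 and 125 CPM in hypoxia, against 25.7 and 15.9 CPM in normoxia in A2058. NXPH4, a secreted neurexin ligand, had 95.2 and 439 CPM in hypoxia, against 18.3 and 8.84 CPM in normoxia, IGSF9 had 2.84 and 20.6 CPM in hypoxia, against 0.333 and 0.0826 CPM in normoxia and TNS1, tensin, had 3.89 and 36.8 CPM in hypoxia, against 0.0769 and 0.138 CPM in normoxia. None of these 8 differences passed the adjusted threshold.

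Among HIF targets, CA9 stood at 5.83 on the log2 scale in A2058, against 7.80 for A375 and 6.67 for SKMEL-5. NDRG1 stood at 4.15 in A2058, against 4.33 for A375 and 3.91 for SKMEL-5. The median difference of the 36 targets from the other lines was 0.16 on the log2 scale. The mitochondrial mRNAs had a median difference of -1.78, with MT-ND2 at -4.12 in A2058, against -2.5 for A375 and -2.57 for SKMEL-5 (edgeR unadjusted p of the difference 0.0274). TYR, MLANA and KIT had no count in the 8 libraries of the other lines, so no difference can be had for them, while SOX10 had 27489 to 74936 counts there.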

How the data were processed

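The authors deposited raw counts of reads per gene, 1 column per library, and these are the values used. Per the submitters' processing notes, the tools were STAR 2.5.0a, Trim Galore 0.6.1 and bcl2fastq 2.20, and the build was GRCh38. The sources used here give no counting tool, strand setting or annotation. Without a known strand setting, reads of overlapping or antisense genes cannot be told apart. Per the labels' protocols, total RNA went into a NuGen mRNA library kit.

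Counts of all 12 libraries were fitted together in edgeR 4.0.16 (R 4.3.3, limma 3.58.1) as 6 group means, with TMM scaling and filterByExpr (minimum count 10, minimum total 15). The spread is therefore shared over the 3 lines, with 6 residual degrees of freedom, and the common coefficient of variation was 0.453. DESeq2 1.42.0 and limma-voom were alternatives. Library totals of A2058 ran from 33831569 to 44522900 counts, so that the upper limit behind a count of 0 (3 counts) is 0.0674 to 0.0887 CPM before TMM scaling. This covers counting error only. The edgeR script was tested on simulated data.

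The comparison, the 47 gene lists and the tests were chosen with earlier results of these data known. The naming rule took called protein-coding genes (the 12 largest in each direction), the member of smallest p in each list with no call, the 8 genes of smallest p for the line difference and 7 fixed genes. It gave 53 genes. A further 69, and the promoters of LDHA, ALDOC, BHLHE40 and DDIT4, were chosen after their values were seen. Some of these genes are not reported here.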

Additional observations from a re-analysis of the deposited data

How the results depend on the processing

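Counts of called genes are given as higher in hypoxia, then lower, against 1 and 1. DESeq2 gave 248 and 124, limma-voom 6 and 4, and no low-count filter 303 and 94. The counts were 0 and 0 with the replicate block within each line, with A2058 alone, with A2058 alone and the replicate block, with A2058 and A375 only, and with 3 hypoxic libraries that stood apart left out (A2058 library 2, A375 library 1 and SKMEL-5 library 1). A filter of 1 CPM in 2 A2058 libraries gave 0 lower, and library totals without TMM gave 2 lower. Leaving out 1 A2058 library gave 0 to 12 higher and 0 to 2 lower. Same-numbered A2058 libraries deviated with a correlation of -0.304 (0.234 in A375 and 0.255 in SKMEL-5), so the numbers were not taken as pairs. Crossed pairing, added after seeing the data, gave 9 and 3 over all lines, with 1 line difference, and 116 and 32 in A2058 alone. For the difference from the other lines, with 0 called, DESeq2 gave 16 and no filter gave 98. The log2 change of CDH13 stayed between 3.19 and 3.40, and its adjusted p ran from 4.11e-24 to 0.237. For A2058 genes with separated libraries, higher, and A2058 genes with separated libraries, lower, a 4-fold gap gave 39 and 10, against 258 and 154. Leaving out 1 A2058 library, added after seeing the data, gave 366 to 1365 and 203 to 1253, the upper ends without hypoxic library 1. Among named genes the log2 changes of AXL, HIF1A and PMEL turned sign, in 4 pairs of gene and setting. AXL ran from -0.0924 (without normoxic library 1) to 2.67 and HIF1A from -0.25 (the same) to 0.74. PMEL was -0.0651 with the 3 libraries left out, and -0.0283 (without hypoxic library 2) to 2.48 when 1 was left out. The medians of 17 of 47 lists changed sign when 1 A2058 library was left out. Library totals moved the median of all genes to -0.07 and that of the nuclear respiratory list to -0.03. The cause of these shifts was not tested.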
